A study of Mus musculus with 80 samples.

Results

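The glycolytic enzymes described here are Hk1, Gpi1, Aldoa, Aldoc, Tpi1, Pgk1, Eno1, Eno2, Ldha and Ldhb, the 10 genes that were named for this purpose and looked up by symbol. All 10 were among the 25160 genes listed. They were followed through single cells of the dorsomedial striatum of adult mice heterozygous for both BAC reporter transgenes, Drd1a-TdTomato and Drd2-EGFP, with 40 cells labelled Drd1 and 40 labelled Drd2. Every cell came from animals carrying both transgenes, and per the study's methods these were females that had received Hoechst dye and India ink in the dorsomedial striatum. The groups therefore hold whatever cells drove 1 reporter or the other in the sort, which need not all be medium spiny neurons (MSN). The values are TPM, in which the reads of a gene are divided by its length and scaled to a fixed total per cell. The paper describes a general bias of its reads toward the tail end of transcripts, and an incomplete annotation there for Chrm4. Levels of different genes in a cell can therefore be set against each other only roughly. Each sample was 1 cell and the labels name no animal, so each group counted as 1 sample and no test was made. Spreads given below are spreads over cells, not errors over animals.

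Glycolysis splits glucose into pyruvate in the cytosol and yields ATP without oxygen. Lactate dehydrogenase then interconverts pyruvate and lactate. Neurons and astrocytes both run the pathway, and some of its isozymes differ between them. Gamma enolase, encoded by Eno2, is known as a neuronal enzyme, and aldolase C, encoded by Aldoc, is used as an astrocyte marker in the forebrain. The B subunit of lactate dehydrogenase is the form associated with oxidative tissues, and the A subunit with tissues that release lactate.

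The cells were divided as follows. D1 MSN are 39 Drd1a-TdTomato cells, without the one that lay in well D04 on plate FACS051_5. D2 MSN are 38 Drd2-EGFP cells, without 2 cholinergic interneurons (ChI) with more than 100 TPM of Chat, the acetylcholine-synthesising enzyme, in wells A08 and B02 of the same plate. The cell in well D04 was labelled Drd1, but its astrocyte marker transcripts set it apart from the neurons. All 16 listed genes of the astrocyte marker list were above 1 TPM in it and summed to 15162 TPM, whereas the highest sums were 798 TPM (D1 MSN) and 1240 TPM (D2 MSN). Gja1, a gap junction protein, was at 989 TPM there and below 1 TPM throughout the 77 neurons. The pan-neuronal list summed to 36.5 TPM in well D04, with Syt1 and Nefl listed at 0, against a median of 2215 TPM in D1 MSN. Some neurons also had low sums of this list. The smallest was 4.25 TPM among the D1 MSN, while among the D2 MSN it was 33.2 TPM. Well D04 thus lay within the neuronal range for this list, and outside it for the astrocyte list. A list of 12 MSN markers summed to 194 TPM in well D04, with 6 of them above 1 TPM. The sums of D1 MSN ran from 14.2 TPM (median 4928 TPM), and the lowest of D2 MSN was 2421 TPM. Of the 7 listed oligodendrocyte genes, 4 were above 1 TPM, Mbp at 244 TPM, with Mag, Mobp and Ermn listed at 0, and the 4 listed microglia genes were at 0. The cell is called astrocyte-like below. Between 648 and 8657 genes per neuron were above 1 TPM, 4838 in well D04, and 10912 and 10251 in the ChI. These 77 neurons are not the 77 usable cells of the study, which it does not name, and they can include cells it left out.

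In the GRCm38 build (GENCODE M21), Ldha (chr7:46841475-46855627), Gpi1 (chr7:34201330-34230336) and Aldoa (chr7:126795234-126800751) lie on chromosome 7. Eno2 (chr6:124760053-124769673), Tpi1 (chr6:124810586-124814296) and Ldhb (chr6:142490249-142507957) lie on chromosome 6. Hk1 (chr10:62268855-62379908), Aldoc (chr11:78322968-78327781), Eno1 (chr4:150236721-150248879) and Pgk1 (chrX:106187100-106203699) are each alone on theirs. Hk1 overlaps Hk1os, Gpi1 overlaps Gm26762, Aldoa overlaps Fam57b and Tpi1 overlaps Spsb2, each on the opposite strand, and reads of such pairs cannot be told apart without strand.

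The promoters of some carry a short letter pattern, ACGTG or its reverse complement CACGT, which is the core that hypoxia-inducible factors are known to bind. Several glycolytic enzymes, though not every member here, are textbook targets of that response. In the RefSeq promoter windows (GRCm38.p6, 250 bases before to 50 bases after each start, both strands searched), 5 of the 10 genes held the pattern, against 21.8% of 27025 genes. The 10 genes had 17 windows and the 27025 genes had 32851, of which 19.6% held the pattern. A gene with more windows has more chances of a match, so these shares of genes are not like for like. The windows below show 1 match each for Ldha, Aldoa and Pgk1, the genes whose match lay before the start, in 25 bases written 5′ to 3′ along the gene with the match in capitals. In the other 2 genes, Hk1 and Aldoc, the match lay after the start. The starts are those of RefSeq transcripts. For Ldha, Aldoa, Hk1 and Aldoc the start beside the match lies inside the GENCODE gene span given above. The pattern was chosen after the values were seen. A match is given as a description of the letters, and binding was not measured.
Ldha, chr7:46845746-46845770, plus strand, 48 bases before the start: gcccagcctaCACGTgggttcccgc
Aldoa, chr7:126799366-126799390, minus strand, 126 bases before a start: tggctcgagtCACGTcctagcgggg
Pgk1, chrX:106186940-106186964, plus strand, 150 bases before the start: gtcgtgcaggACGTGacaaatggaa

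The neurons held large amounts of most of these transcripts. Together the 10 genes summed to between 9.24 and 9227 TPM in D1 MSN (median 4915 TPM) and to between 121 and 11844 TPM in D2 MSN (median 4644 TPM). That was a median of 0.583% of the listed TPM of a D1 MSN and 0.544% of that of a D2 MSN. Ordered by mean TPM over the 77 neurons, Aldoa stood first of the 10 at 1552 TPM, followed by Ldhb (1314), Eno1 (491), Gpi1 (368), Tpi1 (274), Eno2 (246), Ldha (204), Pgk1 (167), Hk1 (41.5) and Aldoc (0.422). Aldoa ranked 38 and Ldhb 43 among the 25160 genes, whereas Hk1 ranked 2833 and Aldoc 17945. Neighbours in that order overlapped widely from cell to cell, so the order is that of the means.

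**Figure D1:**
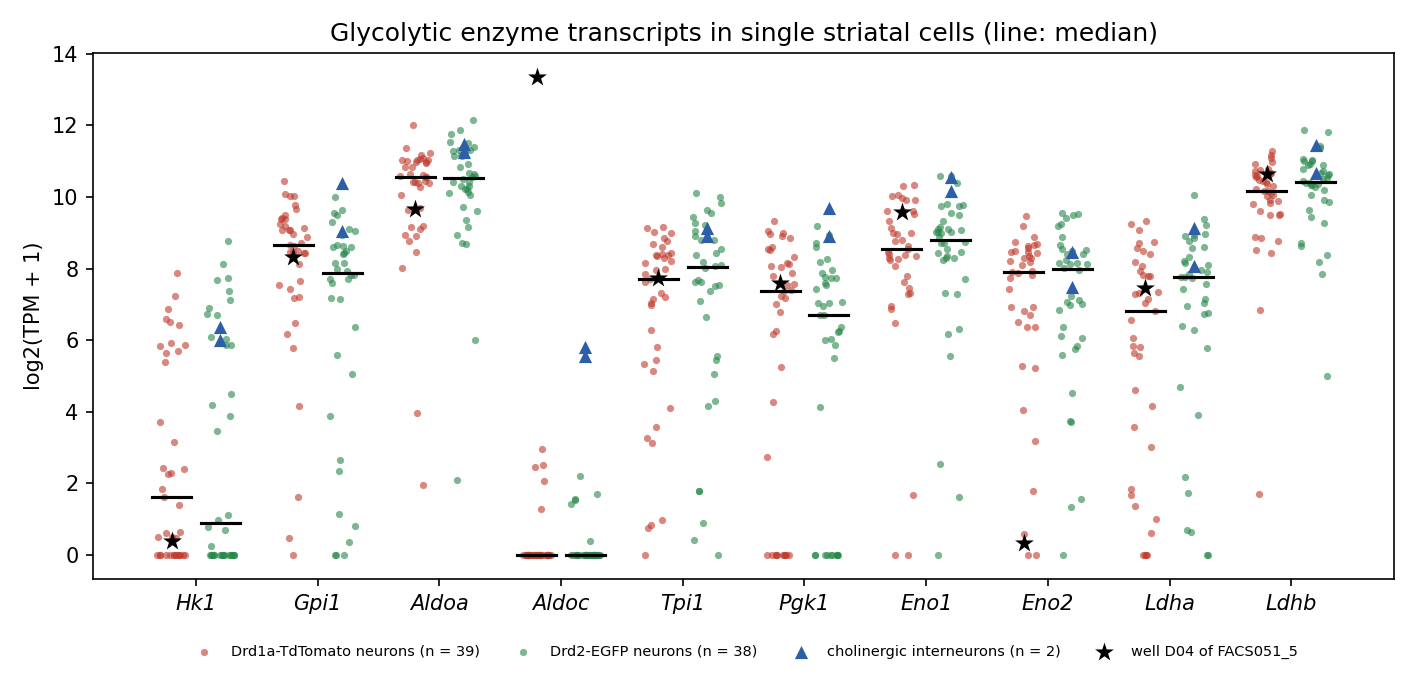
Level of each of the 10 enzymes, as log2(TPM + 1), in each of 80 cells, with D1 MSN in red, D2 MSN in green, the 2 ChI as blue triangles and the astrocyte-like cell of well D04 as a black star; black lines are medians over cells. Aldoa and Ldhb were found in all 77 neurons, Hk1 was listed at 0 in 29 of them, and for Aldoc and Eno2 the star lies far from the medians of the neurons.

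Glycolysis begins with hexokinase, which phosphorylates glucose and holds it in the cell. Hk1, the form that predominates in brain, was the least regularly found of the 9 enzymes that neurons clearly held. It ranged from 0 to 234 TPM in D1 MSN (median 2.09 TPM) and from 0 to 435 TPM in D2 MSN (median 0.866 TPM). Above 1 TPM it was found in 21 of 39 D1 cells (53.8%, 95% exact Clopper-Pearson interval 37.2 to 69.9%) and in 18 of 38 D2 MSN (47.4%, 30.98 to 64.2%). These intervals, like all those below, cover counting error only. In both subtypes it was listed at 0 in part of the cells, 13 D1 MSN and 16 D2 MSN, and abundant in others.

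Gpi1 encodes glucose-6-phosphate isomerase, which turns glucose-6-phosphate into fructose-6-phosphate. It ranged from 0 to 1394 TPM in D1 MSN (median 403 TPM) and from 0 to 1023 TPM in D2 MSN (median 235 TPM). Above 1 TPM it was found in 37 of 39 D1 MSN and in 33 of 38 D2 MSN. The D1 MSN median was the higher, and the ranges overlapped almost entirely.

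Aldolase cleaves fructose-1,6-bisphosphate into a pair of triose phosphates. Aldoa, the form shared by muscle and most tissues, ranged from 2.89 to 4140 TPM in D1 MSN (median 1512 TPM) and from 3.24 to 4505 TPM in D2 MSN (median 1470 TPM). It exceeded 1 TPM in all 39 D1 MSN and all 38 D2 MSN, and the medians lay close together. Aldoc, in contrast, was listed at 0 in 66 of the 77 neurons and reached at most 6.81 TPM (D1 MSN) and 3.66 TPM (D2 MSN). Aldolase transcripts of the neurons were thus almost wholly those of Aldoa.

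Tpi1 encodes triosephosphate isomerase, which interconverts the triose phosphates. It ranged from 0 to 566 TPM in D1 MSN (median 209 TPM) and from 0 to 1096 TPM in D2 MSN (median 261 TPM), and was above 1 TPM in 35 cells of each subtype. Pgk1 encodes phosphoglycerate kinase, the first enzyme of the pathway to make ATP. It ranged from 0 to 639 TPM in D1 MSN (median 165 TPM) and from 0 to 581 TPM in D2 MSN (median 103 TPM). It was found less often than Tpi1, in 29 of the 39 D1 cells (74.4%, 57.9 to 87.0%) and 28 of 38 D2 MSN (73.7%, 56.9 to 86.6%), and was listed at 0 in 19 neurons.

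Among 812 genes with a mean between 100 and 300 TPM, a band chosen after the values were seen, the median gene was above 1 TPM in 80.5% of the neurons. Pgk1 lay below that value with 74.0% and inside the middle range of these genes, 71.4 to 88.3%. Eno2 with 94.8% and Tpi1 with 90.9% lay above that range, and Ldha with 88.3% at its upper end. Pgk1 has a near-identical copy, Pgk1-rs7, and reads can be split between them. Pgk1-rs7 exceeded 1 TPM in 14 neurons, with a highest value of 369 TPM, and Pgk1 itself was listed at 0 in 7 of those 14, so that for Pgk1 a 0 cannot be taken as a missing transcript.

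Enolase makes phosphoenolpyruvate. Eno1, the widespread alpha form, ranged from 0 to 1299 TPM in D1 MSN (median 370 TPM) and from 0 to 1537 TPM in D2 MSN (median 445 TPM). Eno2, the neuronal gamma form, ranged from 0 to 711 TPM in D1 MSN (median 239 TPM) and from 0 to 744 TPM in D2 MSN (median 251 TPM). Both were found in nearly every neuron, Eno1 in 37 cells of each subtype and Eno2 in 36 D1 MSN and 37 D2 MSN.

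Lactate dehydrogenase closes the series. Ldhb ranged from 2.27 to 2490 TPM in D1 MSN (median 1148 TPM) and from 30.7 to 3713 TPM in D2 MSN (median 1366 TPM), above 1 TPM in all 77 neurons. Ldha ranged from 0 to 644 TPM in D1 MSN (median 112 TPM) and from 0 to 1059 TPM in D2 MSN (median 214 TPM), and was found in 34 cells of each subtype. Ldhb was also the enzyme with the smallest spread from cell to cell, a coefficient of variation of 50.3% in D1 MSN and 58.1% in D2 MSN, against 110% and 93.8% for Ldha and 176% in both subtypes for Hk1.

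Most of the 10 enzymes were found together. Of the 77 neurons, 53 held 8 or 9 of them above 1 TPM, and 4 held all 10. The 5 neurons with at most 5 enzymes had between 648 and 2923 genes above 1 TPM. The lowest sum, 9.24 TPM, belonged to a D1 MSN in well B02 of plate FACS086_4 with 648 genes, in which only Aldoa, Eno1 and Ldhb exceeded 1 TPM.

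The next comparison asked whether the MSN subtypes differed in these enzymes. By mean TPM, none of the enzymes differed by more than a log2 fold of 1 on the log2(mean TPM + 1) scale, and the 10 together averaged 4392 TPM (D1 MSN) and 4930 TPM (D2 MSN), a log2 fold of -0.17. Of 9 enzymes with a fold, 0 passed a log2 fold of 1 in size, but 2 (Gpi1 and Ldha) did by the difference of mean log2 values. Among all 15329 genes with a fold, 31.2% did, but that share is set largely by scarce transcripts, and among 1098 genes averaging 100 TPM or more, a limit chosen after the values were seen, it was 3.37%. A count of 0 among 9 is thus near the background of abundant genes. No fold was given for Aldoc, whose mean was under 1 TPM in both subtypes (0.530 and 0.312 TPM), a choice made after the values were seen. In every enzyme the ranges of D1 MSN and D2 MSN overlapped.

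Gpi1 was the enzyme with the largest positive fold, 0.68, from means of 451 TPM (D1 MSN) and 281 TPM (D2 MSN). The fold was 0.62 within plate FACS051_5 and 0.51 within plate FACS086_4, the plates that held most of the cells. Pgk1 was the other enzyme with a higher mean in D1 MSN, 194 against 141 TPM, with a fold of 0.46 overall and of 0.54 and 0.37 within these plates. The medians of both genes had the same order. With means of log2 values in place of log2 of mean TPM, the difference was 1.37 for Gpi1, past 1, and 0.31 for Pgk1.

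The other 7 enzymes had the lower mean in D1 MSN. Tpi1 averaged 219 TPM (D1 MSN) and 330 TPM (D2 MSN), a fold of -0.59 overall and of -0.53 and -0.70 within FACS051_5 and FACS086_4. Ldha averaged 166 and 242 TPM, a fold of -0.55 overall and of -0.73 and -0.52 within the plates, and its difference of mean log2 values was -1.03, past 1 in size. Ldhb (-0.29), Aldoa (-0.22) and Eno1 (-0.06) had smaller folds, each negative on both plates, although the median of Aldoa was slightly the higher in D1 MSN, with a fold of the medians of 0.04.

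For Hk1 the direction also depended on the measure, and for Eno2 on the plate. Hk1 averaged 28.9 TPM (D1 MSN) and 54.5 TPM (D2 MSN), the largest difference in size with a fold of -0.89, but its median was the higher in D1 MSN, with a fold of the medians of 0.73. The highest single cells were at 234 and 435 TPM. Eno2 averaged 234 and 259 TPM, a fold of -0.15, which was -0.70 within FACS051_5 and 0.47 within FACS086_4. The 8 enzymes other than Eno2 had 1 direction on both plates. The median fold of the 9 enzymes was -0.22, beside 0.08 over all genes with a fold and -0.06 over genes averaging 100 TPM or more.

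**Figure D2:**
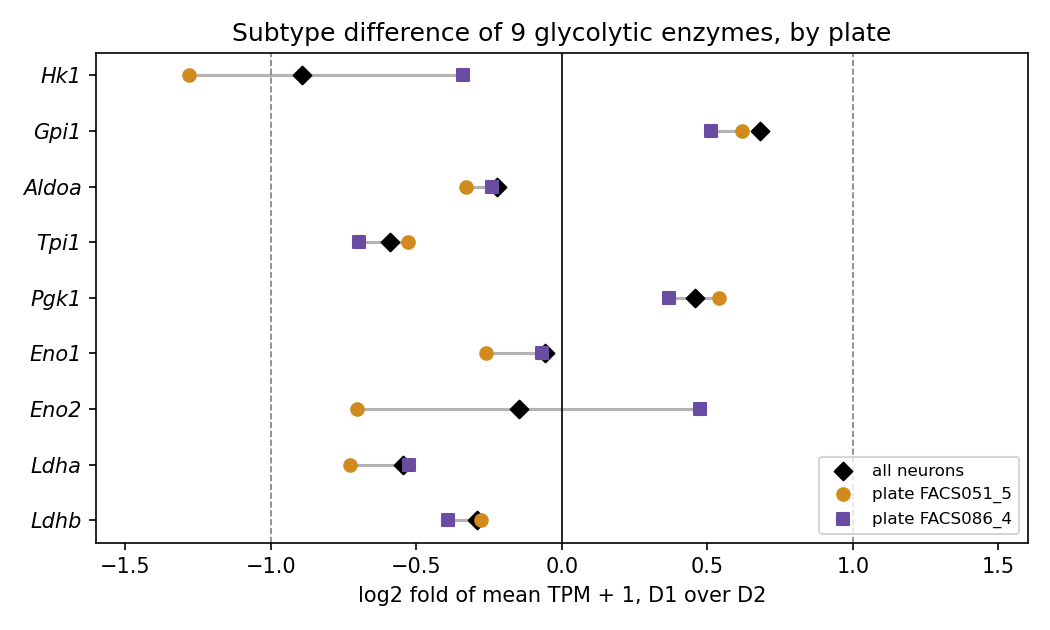
Log2 fold of mean TPM + 1 in D1 MSN over D2 MSN for 9 enzymes, over all 77 neurons (diamonds) and within plate FACS051_5 (circles) and plate FACS086_4 (squares); dashed lines mark a log2 fold of 1 in size. The overall folds lie between -0.89 and 0.68, and only Eno2 lies on both sides of 0 between the plates; Hk1 on plate FACS051_5, at -1.28, is beyond the dashed line.

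The summed level differed more between the large plates than between the subtypes. Its subtype fold was -0.17 over all MSN, -0.26 within FACS051_5 and -0.19 within FACS086_4. The summed level was higher on plate FACS051_5 than on FACS086_4, by a log2 fold of 0.35 in D1 MSN and 0.42 in D2 MSN. In D1 MSN 8 of the 9 enzymes were higher on FACS051_5 and in D2 MSN 9 of 9, beside 68.6% and 64.1% of genes averaging 100 TPM or more. The median fold of the enzymes between plates was 0.27 in D1 MSN and 0.36 in D2 MSN, near that of these genes, 0.30 and 0.23. Eno2 in D2 MSN had the largest fold between the plates, 1.37, against 0.19 in D1 MSN. The median number of genes found was 5288 on FACS051_5 and 5730 on FACS086_4 in D1 MSN, and 5923 and 4617 in D2 MSN. The part of genes found per cell in these plate differences was not tested, and plate and animal cannot be told apart here.

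Within each cell, the isozymes of a step can be set against each other, within the limit on comparing different genes given above. Lactate dehydrogenase was mainly the B form. Ldhb made up a median of 92.9% of the summed TPM of Ldhb and Ldha in D1 MSN (52.9 to 100%) and of 88.9% in D2 MSN (46.6 to 100%). Ldhb exceeded Ldha in 39 of 39 D1 MSN and 37 of 38 D2 MSN. The subtypes lay close together beside the spread from cell to cell.

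Enolase transcripts were a mixture. Eno2 made up a median of 27.3% of the summed TPM of Eno2 and Eno1 in D1 MSN (0 to 100%) and of 29.9% in D2 MSN (0.477 to 71.7%). It exceeded Eno1 in 7 of 39 D1 MSN and 7 of 38 D2 MSN, so that the widespread form was the more abundant transcript in most of these neurons. The median share of Eno2 was higher on FACS051_5 (30.7% in D1 MSN and 38.0% in D2 MSN) than on FACS086_4 (23.6% and 24.2%).

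**Figure D3:**
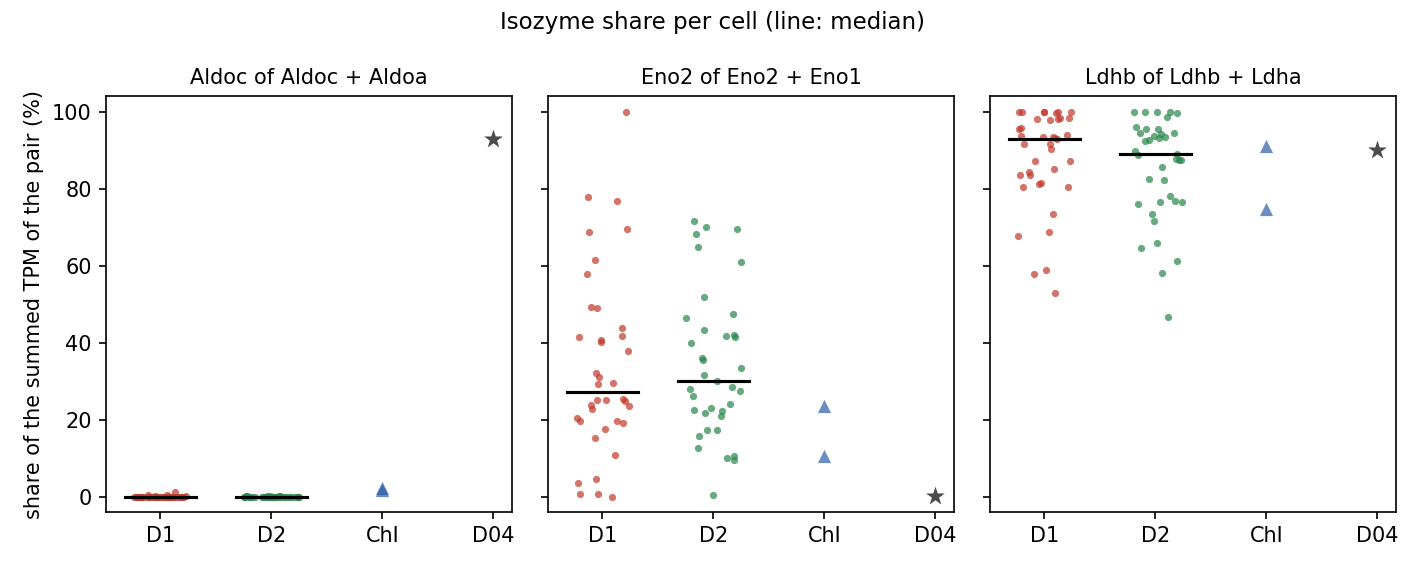
Share, in percent, of Aldoc, Eno2 and Ldhb in the summed TPM of their isozyme pair in each cell, by group (D1 MSN, D2 MSN, 2 ChI, the cell of well D04), with medians as black lines. The cell of well D04 lies at 92.8% for Aldoc and 0.0332% for Eno2, where the neurons have medians of 0% and of 27.3 to 29.9%, and within the range of the neurons for Ldhb.

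The astrocyte-like cell held far more Aldoc and far less Eno2 than the D1 MSN, and most of its other enzymes lay within their range. Aldoc was at 10427 TPM, above each of the 77 neurons, of which none exceeded 6.81 TPM. On the log2(TPM + 1) scale this was 12.73 above the mean of D1 MSN, a size that depends on the added 1 TPM because the neurons lay near 0. Aldoc made up 92.8% of the aldolase pair in this cell, against at most 1.21% in a neuron, although Aldoa was still present at 804 TPM. Eno2 went the other way. It was at 0.255 TPM, lower than in all but 3 of the 77 neurons, with a log2 fold of -7.55 over the D1 MSN mean on the same scale. Eno1 in the same cell was at 768 TPM, higher than in 29 of 39 D1 MSN.

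The other enzymes of this cell lay among those of the D1 MSN. Ldhb was at 1593 TPM, Gpi1 at 321 TPM, Tpi1 at 212 TPM, Pgk1 at 194 TPM and Ldha at 175 TPM, and the share of Ldhb in its pair was 90.1%, close to the neuronal medians. Hk1 was at 0.327 TPM, but 13 of the 39 D1 MSN were listed at 0 for it, so a low value in 1 cell is no difference. A log2 fold of more than 1 in size separated this cell from the D1 MSN mean for 3 of 10 enzymes, Aldoc, Eno2 and Hk1, whereas 71.7% of 5939 genes with a fold and 54.9% of 915 genes with a D1 MSN mean of at least 100 TPM passed it, so that the count itself is no mark of these enzymes. The summed level, 14495 TPM or 1.56% of the listed TPM, was the highest of the 80 cells, and most of it was Aldoc. This is 1 cell, with no replicate.

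The ChI, large neurons that release acetylcholine, held all 5 listed cholinergic markers above 1 TPM, and their sums of the 10 enzymes, 8569 TPM in well A08 and 9578 TPM in well B02, were higher than in 74 and 76 of the 77 MSN. Compared with the mean of D2 MSN, 10 enzymes were higher in A08 and 9 in B02, beside 61.2% and 57% of the genes found in that cell whose D2 MSN mean was at least 100 TPM. Pgk1 was at 483 and 821 TPM, higher than in 36 and 38 of 38 D2 MSN, and Eno1 at 1140 and 1491 TPM, higher than in 35 and 36 of them. Gpi1 was at 528 and 1346 TPM, and Ldha at 268 and 556 TPM. Eno2 was at 353 TPM in A08, above the D2 MSN mean of 259 TPM, and at 177 TPM in B02, below it. Its share of the enolase pair was 23.6% and 10.6%. Among the 9 enzymes with a D2 MSN mean of at least 1 TPM, 2 in A08 and 4 in B02 exceeded that mean by a log2 fold of 1, beside 23.9% and 21.7% of genes with a D2 MSN mean of at least 100 TPM. The ChI also had the most genes found of all cells, and the part of that in these values was not tested.

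Aldoc was the enzyme in which the ChI stood apart from every MSN, with 55.4 TPM in A08 and 46.2 TPM in B02, above all 77 neurons. It still made up only 2.22% and 1.59% of their aldolase pair. The astrocyte marker list summed to 510 and 421 TPM in these cells, within the range of D2 MSN (4.75 to 1240 TPM), with Aqp4, Gja1, Gjb6, Aldh1l1, Ntsr2, Fgfr3 and Mlc1 listed at 0 in both.

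The few MSN with Aldoc above 0 were not spread over the plates, a pattern noticed after the values were seen. On plate FACS051_5, Aldoc was above 0 in 11 of the 12 MSN of rows C and D and in 0 of the 21 MSN of rows A and B. It was above 0 in 0 of the 44 MSN of the other plates. The 11 values ran from 0.323 to 6.81 TPM, that is from 0.0031% to 0.0653% of the level in well D04, which lies in row D of the same plate. They belonged to both subtypes, and the only MSN of these rows at 0 was the D2 MSN in well D02. Gja1 and Mlc1, astrocyte genes, were likewise above 0 in 4 and 3 of these 12 MSN, in 0 of the 21 and in 0 of the 44, and reached at most 0.0684% and 0.107% of their level in well D04. Of the 16 listed astrocyte markers, 3 (these and Aldh1l1, in 1 cell) were above 0 only in MSN of rows C and D, 2 (Gjb6 and Fgfr3) were at 0 in all 77 MSN despite their presence in well D04, and 11 were above 0 in other MSN too. Among those 11, Slc1a2 was above 0 in 8 of the 12 MSN, 1 of the 21 and 10 of the 44, and Ntsr2 in 7, 2 and 3, whereas S100b was above 0 in 11, 20 and 43, nearly every MSN of each block. The cause of the row pattern was not tested. The ChI are in rows A and B, where every MSN was at 0.

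**Figure D4:**
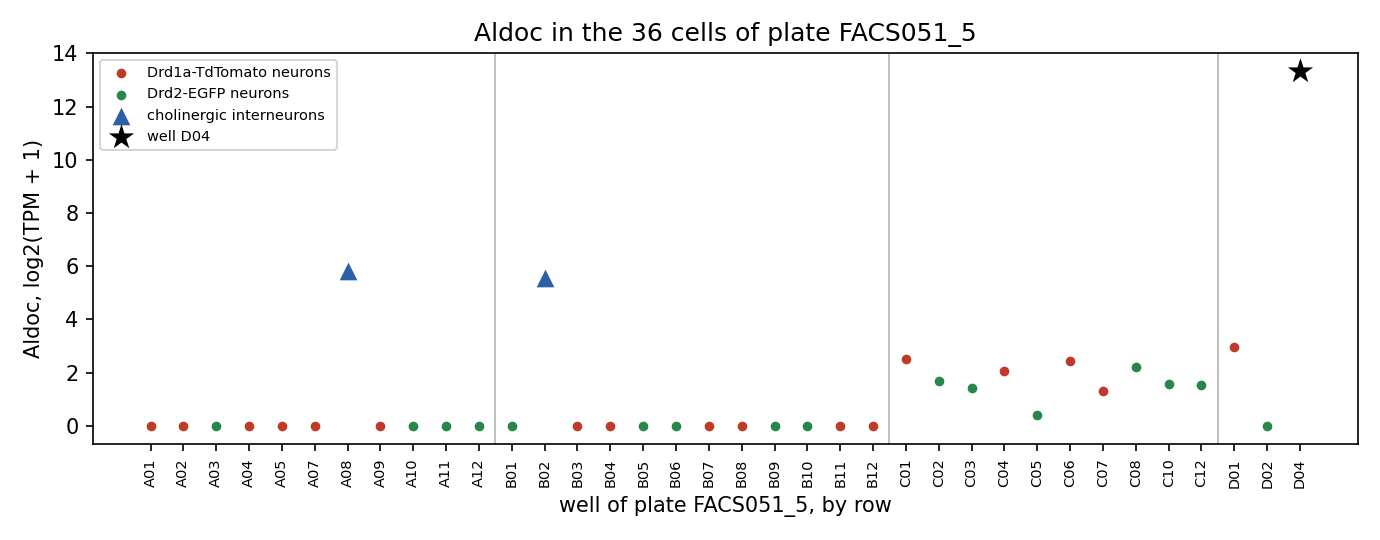
Aldoc as log2(TPM + 1) in the 36 cells of plate FACS051_5, ordered by well, with vertical lines between plate rows and D1 MSN in red, D2 MSN in green, ChI as triangles and the cell of well D04 as a star. The MSN of rows A and B are at 0, 11 of the 12 MSN of rows C and D lie above 0 at no more than 6.81 TPM, and the star stands at 10427 TPM.

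Across the 77 MSN the enzymes tended to rise and fall together. Over the 36 pairs of the 9 enzymes other than Aldoc, Spearman's rho of log2(TPM + 1) had a median of 0.31 and ran from -0.06 to 0.64, with 35 pairs above 0. The highest values were those of Aldoa with Eno1 (0.64) and with Eno2 (0.61). The points are single cells, each its own library, and not animals. The enzymes of a cell share how many genes were found in it. The rho of a single enzyme with that number ran from 0.15 (Hk1) to 0.52 (Gpi1). The same values for pairs of other abundant genes are not given here, so the pattern is not shown to be particular to these enzymes. With the 3 cells under 2000 genes left out the median was 0.26 over 74 cells, and within plate FACS051_5 (33 cells) it was 0.22 and within FACS086_4 (40 cells) 0.30. The summed level had a rho of 0.41 with the number of genes above 1 TPM, and of 0.34 without the 3 cells.

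**Figure D5:**
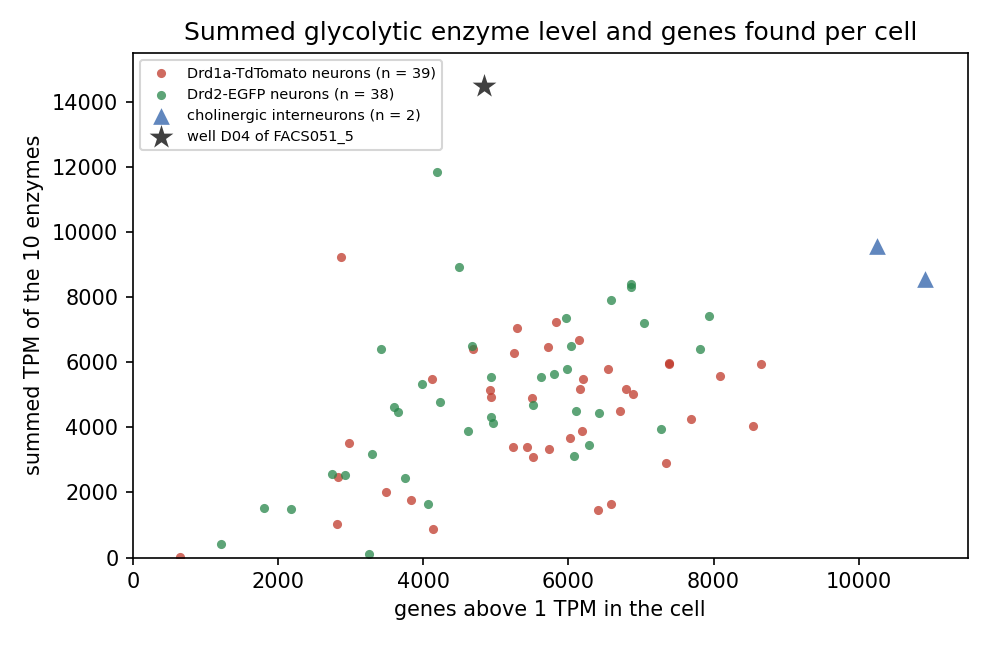
Summed TPM of the 10 enzymes against the count of genes above 1 TPM, 1 point per cell (80 cells), with D1 MSN in red, D2 MSN in green, ChI as triangles and the cell of well D04 as a star. The MSN with the fewest genes have low sums, the ChI have the most genes (10251 and 10912), and the star has the highest sum (14495 TPM) with 4838 genes.

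The genes whose levels most resembled the mean log2(TPM + 1) of the 10 enzymes over the 77 MSN, among 7599 other genes averaging 10 TPM or more, were Ubb (rho 0.73), which encodes ubiquitin, Hspa8 (0.71), a chaperone, Fkbp1a (0.69), Eef1a1 (0.69), a translation elongation factor, and Ywhaz (0.68). The median rho of all genes compared was 0.20. These are abundant transcripts, with means between 701 and 4526 TPM, and they share the depth of each cell with the enzymes.

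Other enzymes of the pathway and its neighbours were taken from a list of 41 genes, of which 36 were listed and 30 had a fold between the subtypes. Of these, 4 had a log2 fold above 1 and 4 below -1, near the background of 31.2%, and the median was 0.04. The abundant enzymes lay close together. Gapdh, the dehydrogenase between Tpi1 and Pgk1, averaged 2192 TPM (D1 MSN) and 1891 TPM (D2 MSN), above Aldoa. Pkm, pyruvate kinase, averaged 518 and 622 TPM, and Pgam1, phosphoglycerate mutase, 210 and 223 TPM.

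Phosphofructokinase and hexokinase are held to control the rate of the pathway. Of the phosphofructokinases, Pfkp averaged 163 and 134 TPM, Pfkm 55.2 and 59.8 TPM and Pfkl 22.3 and 20.3 TPM, and Hk2 was at 1.45 and 0.514 TPM beside Hk1 at 28.9 and 54.5 TPM. Slc2a3, the neuronal glucose transporter, averaged 39.3 and 73.7 TPM, but was higher in D1 MSN within plate FACS086_4 (a fold of 0.48) and lower within FACS051_5 (-1.28). The genes past a fold of 1 were scarce. Bpgm, for instance, averaged 7.10 and 37.3 TPM and was above 1 TPM in 10 cells of each subtype.

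In the astrocyte-like cell, Pkm was at 69.8 TPM, lower than in all but 4 of the 39 D1 MSN, and Gapdh at 1280 TPM, lower than in all but 7. Pfkp was at 368 TPM, higher than in 34 of them. Mpc1, a subunit of the carrier that takes pyruvate into mitochondria, was at 2306 TPM, above every D1 MSN but not every D2 MSN. In the ChI it was at 1630 and 1709 TPM. The MSN subtypes had means of 403 and 391 TPM and highest values of 1115 TPM (D1 MSN) and 2705 TPM (D2 MSN).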

How the data were processed

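Single cells were sorted by FACS, and cDNA was made with the SMARTer Ultra Low Input kit v3 and sequenced on a MiSeq. The authors deposited 1 table of TPM per gene and cell. The submitters' processing notes name bcl2fastq 2.18, STAR 2.5.0, FastQC 0.11.5, featureCounts 1.5.1 and DESeq2 1.14.1 and the build mm10/GRCm38, and how the TPM were made is not given in the sources used here. TPM keep no depth, so a 0 is given as listed at 0. Whether counting used strand is not given in the sources used here.

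The members, gene lists and the cells set apart were chosen with earlier results of these data known. All 80 cells were used. The study reported usable data from 77 of 80 cells without naming them, so the 77 neurons here are another set. Cells with few genes were kept, among them 3 neurons with under 2000 genes (648 to 1802). A cell counted for a gene above 1 TPM. Folds are log2 of mean TPM + 1 in D1 MSN over D2 MSN. Shares of cells have 95% exact Clopper-Pearson intervals. Named genes were the 10 enzymes, the fixed list of related genes and the 5 genes of highest rho. In that list Hk3, Pgk2, Ldhc, Pfkfb1 and Slc2a4, and the copy Gm5506, were not matched, and 1 gene of it is not reported here. Gene positions came from GENCODE M21. Alternatives changed the pseudocount, the mean, the scaling, the detection limit and the cells. The steps were tested on simulated data. Tables were read with pandas 2.3.3 and numpy 2.4.6 under Python 3.11.15, intervals and ranks computed with scipy 1.17.1, and plots drawn with matplotlib 3.10.9.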

Additional observations from a re-analysis of the deposited data

How the results depend on the processing

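Each group is 1 sample, the depth is unknown and no animal is named, so the values describe these cells. No paired analysis was possible because the results come from no test and replicate numbers were given in accession order only. Of the alternatives, 77 of 90 folds of single enzymes, 6 of 10 counts past a log2 fold of 1, 7 of 10 median folds and 6 of 10 folds of the summed level stayed within 1 SD of the values on the 2 large plates, or at the same count. This SD comes from 2 values and is wide for an enzyme that differs between the plates. Such an enzyme stays within it easily, even where its direction turns, so the share of folds within it is no measure of stability.

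The summed fold, -0.17, was -0.086 with well D04 kept, -0.23 with the ChI kept, -0.090 without plate FACS051_5 and -0.23 without plate FACS086_9. The median fold, -0.22, was -0.30 with the ChI kept, -0.13 without FACS051_5 and -0.29 without FACS086_9. The count past 1, 0 as reported, was 2 with means of log2 values (Gpi1 at 1.37 and Ldha at -1.03), 1 with well D04 kept (Aldoc at 7.64), 1 with the ChI kept (Aldoc at -1.33) and 1 without FACS086_4 (Hk1 at -1.53). Eno1, -0.06, turned to 0.13 without FACS051_5, where Aldoa was -0.13 and Ldha -0.40. Eno2, -0.15, turned to 0.54 without FACS051_5 and was -0.52 without FACS086_4, both within its wide SD between plates. Gpi1 was 0.52 and Pgk1 0.22 with the ChI kept, Tpi1 -0.45 and Pgk1 0.31 with means of log2 values, Gpi1 0.85 and Ldhb -0.18 without FACS086_4, and Gpi1 0.56 and Aldoa -0.29 without FACS086_9. Of 100 shares of cells, 89 stayed within their intervals. Hk1 was above 10 TPM in 33.3% of D1 MSN, and Aldoc in 0% of either subtype. Taken from the summed TPM of a group instead of per cell, the share of Aldoc was 0.0370% in D1 MSN and 0.0186% in D2 MSN, that of Eno2 32.7% in D1 MSN, and that of Ldhb 87.7% and 85.7%. The median share of Ldhb was 91.8% in D1 MSN and 91.5% in D2 MSN without FACS051_5, and 92.3% in D1 MSN without FACS086_4. The size of the Aldoc fold of well D04, 12.73, was 14.01 with 0.1 TPM added and 9.95 with 10 TPM added, that of Eno2, -7.55, was -4.57 with 10 TPM, and that of Hk1, -4.49, was -1.22 against the D1 MSN median. Apart from what each alternative leaves in or out, the cause was not tested.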

Other observations

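Hk2, the inducible hexokinase, was listed at 0 in both ChI, where Hk1 was at 63.5 and 82.0 TPM. It was also at 0 in 25 of 39 D1 MSN and 29 of 38 D2 MSN, so this does not set the ChI apart.

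Pdk4, a kinase that switches off pyruvate dehydrogenase, was at 8.94 TPM in the astrocyte-like cell, above each of the 77 MSN. G6pdx, the first enzyme of the pentose phosphate pathway, was at 64.1 TPM there, above 71 of them, and Taldo1, a later enzyme of it, at 284 TPM, above 66.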
